A study of Homo sapiens with 8 samples.

Results

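Fibroblast activation protein, encoded by FAP, and its relatives among the proline-cutting serine peptidases were followed on 8 expression arrays of a metastatic breast carcinoma line. The 8 genes were FAP, DPP4, DPP8, DPP9, DPP6, DPP10, DPP7 and PREP, taken from the expression table by gene symbol out of 20219 distinct symbols, and each of the 8 was measured by 1 feature (a gene-level set of probes). FAP was chosen because its level differed with IL-13 on these same arrays, so its differences with IL-13 are given as values without a test. The other 7 were taken as its relatives, whatever their own levels.

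The cells were MIV-Luc, which is MCF10CA1a, the metastatic end of the MCF10A progression series, carrying a luciferase reporter. All of them also carried a lentiviral pLKO hairpin vector, either with a scrambled hairpin (MIV-Luc-shSCR) or with a hairpin against the receptor IL13Rα2 (MIV-Luc-shIL13Rα2#2), and were puromycin-selected pools, so the knockdown rests on 1 hairpin. Each line was mock-treated (− IL-13) or kept for 16 h with IL-13 at 20 ng/ml (+ IL-13), which made 4 groups of 2 arrays, described in the study as biological replicates and named A and B here. The comparisons ask what IL-13 does to expression in these cells and whether the level of IL13Rα2, a decoy receptor for IL-13, alters it.

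FAP and DPP4 are sister proteases that sit in the plasma membrane, form dimers and remove a pair of residues from the start of peptides whose second residue is proline. FAP also cuts inside denatured collagen and is best known from activated fibroblasts of carcinoma stroma and healing wounds, while DPP4, the surface antigen CD26, trims chemokines and incretin hormones. DPP8 and DPP9 are the cytosolic enzymes of the family, DPP6 and DPP10 have lost the catalytic activity and serve as accessory subunits of Kv4 potassium channels, DPP7 acts in intracellular vesicles, and PREP cuts short peptides in the cytosol.

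Expression is given as log2 values made by RMA, a method that subtracts background, equalizes the distributions of the arrays and summarizes the probes of a gene. The array medians lay between 5.02 and 5.06, and Pearson's r across features was 0.992 to 0.993 within groups and 0.988 to 0.993 between them. Differences were tested with limma on all 8 arrays, with Benjamini-Hochberg adjustment over 29141 features, and a gene was called at an adjusted p under 0.05 with a fold change above 2. IL13RA2, the target of the hairpin, was lower by -1.65 on the log2 scale without IL-13 (adjusted p = 0.0105 from limma) and by -1.16 among treated cells (adjusted p = 0.0241 from limma). Its group means were higher with IL-13 in both lines (8.08 and 9.35 scrambled, 6.43 and 8.19 knockdown), so in treated knockdown cells the receptor transcript was not below its level in mock-treated scrambled cells (difference 0.11, adjusted p = 0.815 from limma). Precision is limited by the number of arrays, and the standard error of a difference between a pair of groups was 0.10 to 0.26 among the 8 genes.

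FAP was higher in IL-13-treated cells of both lines, 2.97-fold on average, and its differences with the hairpin against IL13Rα2 did not pass the test. In the MIV-Luc-shSCR line the mock-treated arrays read 6.89 and 7.10 on the log2 scale, a mean of 6.99 ± 0.15 (SD, n = 2). The treated arrays of that line read 8.38 and 8.36, a mean of 8.37 ± 0.015 (SD, n = 2). All treated arrays of the scrambled line lay above its mock-treated ones. In MIV-Luc-shIL13Rα2#2 cells FAP was 6.77 and 6.87 without IL-13, a mean of 6.82 ± 0.07 (SD, n = 2). With IL-13 it was 8.52 and 8.65 in the knockdown line, a mean of 8.58 ± 0.09 (SD, n = 2). Over both lines the 4 treated arrays averaged 8.48 and the 4 mock-treated arrays 6.91, and the lowest treated array stood 1.26 log2 units above the highest mock-treated array. As these are bulk cultures, more or fewer cells expressing a gene and more or less RNA of it per cell cannot be told apart.

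The difference with IL-13 was 1.38 on the log2 scale in the scrambled line, a 2.60-fold higher level (standard error 0.12 log2 units). In the knockdown line it was 1.77, or 3.40-fold with the same standard error, and averaged over both lines it was 1.57, or 2.97-fold (standard error 0.08). MIV-Luc-shIL13Rα2#2 (+ IL-13) cells stood 1.59 above MIV-Luc-shSCR (− IL-13) cells, which is 3.01-fold. Among the 20219 symbols, ordered from the largest increase, FAP was number 10 for IL-13 in the scrambled line, number 3 in the knockdown line, number 4 averaged over both lines and number 9 when treated knockdown cells were set against mock-treated scrambled cells. These comparisons share arrays with one another, and they are the contrasts that led to the choice of FAP, so the ranks describe that choice. The response was 0.39 log2 units larger in the knockdown line (standard error 0.17), a difference given here without a test for the same reason.

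**Figure D1:**
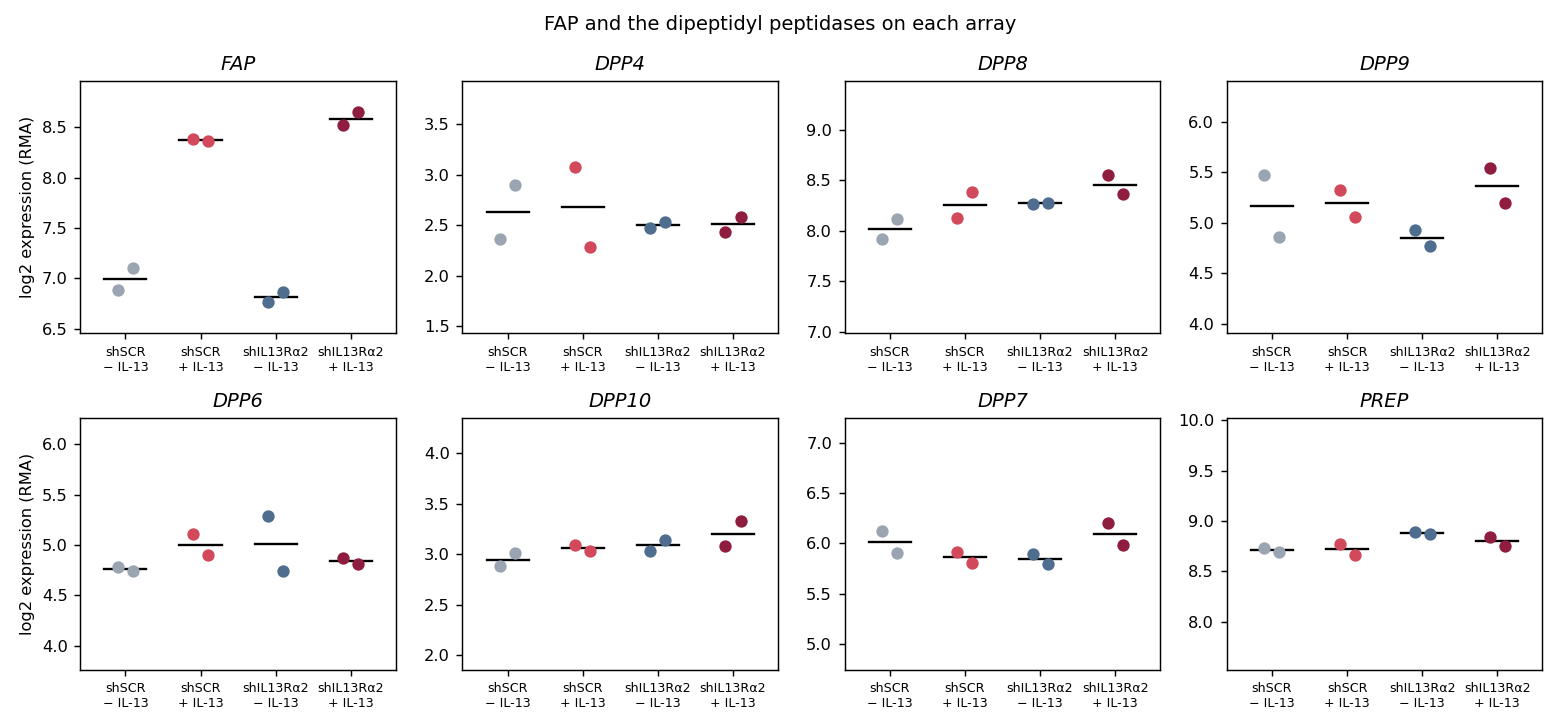
Log2 expression (RMA) of FAP and its 7 relatives on each array, in 4 groups of 2 arrays, with points for arrays and bars for group means; every panel spans the same number of log2 units around its own gene. The FAP points of both IL-13-treated groups, at 8.36 to 8.65, lie above all mock-treated points, at 6.77 to 7.10, and no other gene shows such a gap between the treated and mock-treated arrays of both lines.

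The contrasts of knockdown against scrambled cells at the same treatment did not choose FAP, and they were tested. Treated knockdown against mock-treated scrambled cells did lead to the choice and shares arrays with them. These tests of FAP are therefore not independent of its choice. Without IL-13 both knockdown arrays (6.77 and 6.87) lay just under both scrambled arrays (6.89 and 7.10), by -0.18 on the log2 scale (95% confidence interval -0.45 to 0.097, adjusted p = 0.681 from limma). With IL-13 the order was the opposite, since both knockdown arrays (8.52 and 8.65) lay above both scrambled arrays (8.38 and 8.36). That difference was 0.21 (95% confidence interval -0.061 to 0.48, adjusted p = 0.793 from limma). Averaged over both treatments the knockdown difference was 0.018 (95% confidence interval -0.18 to 0.21, adjusted p = 0.964 from limma). Ordered by level, the groups therefore ran from the mock-treated knockdown cells through the mock-treated scrambled cells and the treated scrambled cells to the treated knockdown cells. The neighbours at each end of that order did not pass the test for a difference, and the step between the middle groups is the one with IL-13.

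DPP4, the closest relative of FAP and its neighbour on the chromosome, was dim on every array. Its log2 expression was 2.36 and 2.90 in mock-treated scrambled cells, 3.07 and 2.29 in treated scrambled cells, 2.47 and 2.53 in mock-treated knockdown cells and 2.43 and 2.59 in treated knockdown cells. The highest and the lowest of these values were the 2 arrays of one group, so the groups overlapped. Of the 2904 negative control features, 82.3% were brighter than the mean of DPP4. The difference with IL-13 was 0.049 in the scrambled line (95% confidence interval -0.56 to 0.66, adjusted p = 0.986 from limma) and 0.0081 in the knockdown line (95% confidence interval -0.60 to 0.62, adjusted p = 0.997 from limma). Averaged over both lines it was 0.029 (95% confidence interval -0.40 to 0.46, adjusted p = 0.980 from limma). At a signal this close to the negative controls a change in DPP4 was not detectable.

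DPP8 and DPP9, the cytosolic enzymes, had the largest differences between groups among the 7 relatives, and neither passed the adjusted test. DPP8 measured 7.92 and 8.12 in mock-treated scrambled cells, 8.13 and 8.38 in treated scrambled cells, 8.27 and 8.28 in mock-treated knockdown cells and 8.55 and 8.36 in treated knockdown cells. Every treated array of DPP8 lay above the mock-treated arrays of its own line, though the highest mock-treated knockdown array was above one treated scrambled array. The treated knockdown cells stood 0.44 above the mock-treated scrambled cells, a 1.36-fold difference (95% confidence interval on the log2 scale 0.13 to 0.75, adjusted p = 0.372 from limma). Its difference with IL-13 was 0.24 in the scrambled line (adjusted p = 0.806 from limma) and 0.18 in the knockdown line (adjusted p = 0.835 from limma). The knockdown difference over both treatments was 0.23 (95% confidence interval 0.0077 to 0.45, adjusted p = 0.429 from limma).

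DPP9, which holds the inflammasome sensors NLRP1 and CARD8 in check, measured 5.47 and 4.86 in mock-treated scrambled cells, 5.32 and 5.06 in treated scrambled cells, 4.93 and 4.77 in mock-treated knockdown cells and 5.54 and 5.20 in treated knockdown cells. Its arrays were spread more widely than those of DPP8, and only in the knockdown line did treated and mock-treated arrays stay apart. There the difference with IL-13 was 0.52, or 1.43-fold (95% confidence interval 0.020 to 1.02, adjusted p = 0.703 from limma). In the scrambled line it was 0.026 (95% confidence interval -0.47 to 0.52, adjusted p = 0.992 from limma). The difference between these responses was 0.49 with a standard error of 0.30 (adjusted p = 0.989 from limma), so a response particular to the knockdown line was not shown. Without IL-13 the knockdown cells were at -0.32 relative to the scrambled cells (adjusted p = 0.688 from limma).

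DPP6 and DPP10, the non-enzymatic channel subunits, were at 4.74 to 5.29 and 2.88 to 3.33 over all arrays. DPP6 was 4.78 and 4.74 in mock-treated scrambled cells, 5.11 and 4.90 in treated scrambled cells, 5.29 and 4.74 in mock-treated knockdown cells and 4.88 and 4.81 in treated knockdown cells. The mock-treated knockdown arrays thus held both extremes of DPP6. Its difference with IL-13 was 0.24 in the scrambled line (adjusted p = 0.843 from limma) and -0.17 in the knockdown line (adjusted p = 0.892 from limma). DPP10 was 2.88 and 3.01, then 3.09 and 3.03 with IL-13, in the scrambled line, and 3.03 and 3.14, then 3.08 and 3.33 with IL-13, in the knockdown line. Its mean was below 71.3% of the negative controls, so like DPP4 it was read at the background of the array. The difference of DPP10 with IL-13 over both lines was 0.11 (adjusted p = 0.760 from limma), and its knockdown difference over both treatments was 0.14 (adjusted p = 0.601 from limma).

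DPP7, the vesicular enzyme, was 6.12 and 5.90 in mock-treated scrambled cells, 5.92 and 5.80 in treated scrambled cells, 5.90 and 5.79 in mock-treated knockdown cells and 6.20 and 5.98 in treated knockdown cells. The treated arrays were the upper ones in the knockdown line and mostly the lower ones in the scrambled line. The difference of DPP7 with IL-13 was accordingly -0.15 in the scrambled line (adjusted p = 0.868 from limma) and 0.25 in the knockdown line (adjusted p = 0.767 from limma), and the difference between the lines was 0.40 (standard error 0.18, adjusted p = 0.989 from limma). PREP, the cytosolic oligopeptidase, varied least of the 8 genes. It was 8.73 and 8.69 in mock-treated scrambled cells, 8.78 and 8.66 in treated scrambled cells, 8.89 and 8.87 in mock-treated knockdown cells and 8.84 and 8.75 in treated knockdown cells. All 8 arrays of PREP lay within 0.23 log2 units. Its difference with IL-13 was 0.0032 in the scrambled line (95% confidence interval -0.24 to 0.24, adjusted p = 0.998 from limma) and -0.082 in the knockdown line (adjusted p = 0.916 from limma), and without IL-13 the knockdown cells stood 0.16 above the scrambled cells (adjusted p = 0.663 from limma).

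Read across the 8 genes, the calls were few in every comparison. For IL-13 in the scrambled line 1 of the 8 was called, FAP, where 0.0583% of all features were called. For IL-13 in the knockdown line it was again FAP, with 0.0618% of all features called, and over both lines FAP with 0.0927%. Treated knockdown cells against mock-treated scrambled cells also called FAP alone, with 0.154% of all features called. As FAP was selected on these contrasts, nothing is read from those counts. They fell to 0 without any one of the 4 arrays compared for IL-13 in the scrambled line, without either mock-treated knockdown array or array B of the treated knockdown cells for IL-13 in the knockdown line, and without array A of the mock-treated scrambled cells or either treated knockdown array for treated knockdown against mock-treated scrambled cells.

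For the knockdown, limma called 0 of the 8 genes without IL-13 (0.0652% of all features), 0 among treated cells (0.0515%) and 0 over both treatments (0.0755%). At an unadjusted p under 0.05 from limma these counts were 0, 0 and 1, the last being DPP8, against 9.51%, 7.07% and 11.3% of all features. With a fold change above 2 still required, the analysis of variance named in the study's methods called 0 of the 8 without IL-13 and 0 among treated cells. This held with and without adjustment. The differences of the 8 genes were -0.32 to 0.26 without IL-13 and -0.17 to 0.23 among treated cells. None reached that fold change, so these counts say nothing about the p-values. For the interaction of knockdown and IL-13 the adjusted test called 0% of all features, and so 0 of the 7 relatives of FAP. The unadjusted one passed 4.47% of all features and 0 of the 7 relatives. FAP is left out of both counts because it was chosen on its differences with IL-13.

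Leaving the threshold aside, treated and mock-treated arrays of the scrambled line kept apart in 4 of the 8 genes, FAP, DPP8, DPP6 and DPP10, all higher, where 36.7% of all features were without overlap. With IL-13 in the knockdown line there were 5 such genes, with FAP, DPP8, DPP9 and DPP7 higher and PREP lower, against 37.4% of all features. Over both lines FAP was the 1 gene of the 8 whose 4 treated arrays all lay on one side of the 4 mock-treated ones, an arrangement of 4.78% of all features. FAP was chosen on its difference with IL-13, so nothing is read from its part in these counts. Among the 7 relatives alone 3 were apart in the scrambled line, 4 in the knockdown line and 0 over both. Without IL-13 the knockdown separated 5 genes (DPP8, DPP10 and PREP higher, FAP and DPP7 lower; 41.2% of all features), and among treated cells it separated 3 (FAP and DPP7 higher, DPP6 lower; 36.4% of all features). Treated knockdown cells were apart from mock-treated scrambled cells in 5 genes, FAP, DPP8, DPP6, DPP10 and PREP, all higher, against 40.3% of all features, and over both treatments the knockdown separated 0 of the 8, against 7.13%. The median difference of the 8 genes with IL-13 over both lines was 0.082, beside 0.0084 over all features. That median includes FAP, as does the count for treated knockdown against mock-treated scrambled cells, and FAP was chosen on both contrasts. Of the 7 relatives 4 were apart in the latter.

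The 7 relatives together ranged from -0.15 to 0.24 with IL-13 in the scrambled line, from -0.17 to 0.52 in the knockdown line and from -0.040 to 0.27 over both. The smallest adjusted p among them was 0.806, 0.703 and 0.597 in turn, all from limma. The upper ends of their 95% confidence intervals reached a fold change of 1.58 in the scrambled line, 2.02 in the knockdown line and 1.54 over both. For DPP4 and DPP10, read at the background of the array, such an interval does not bound a change in the RNA. DPP6 and DPP9 stood higher but were also low, with 38.8% and 35.6% of the negative controls brighter than their means.

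**Figure D2:**
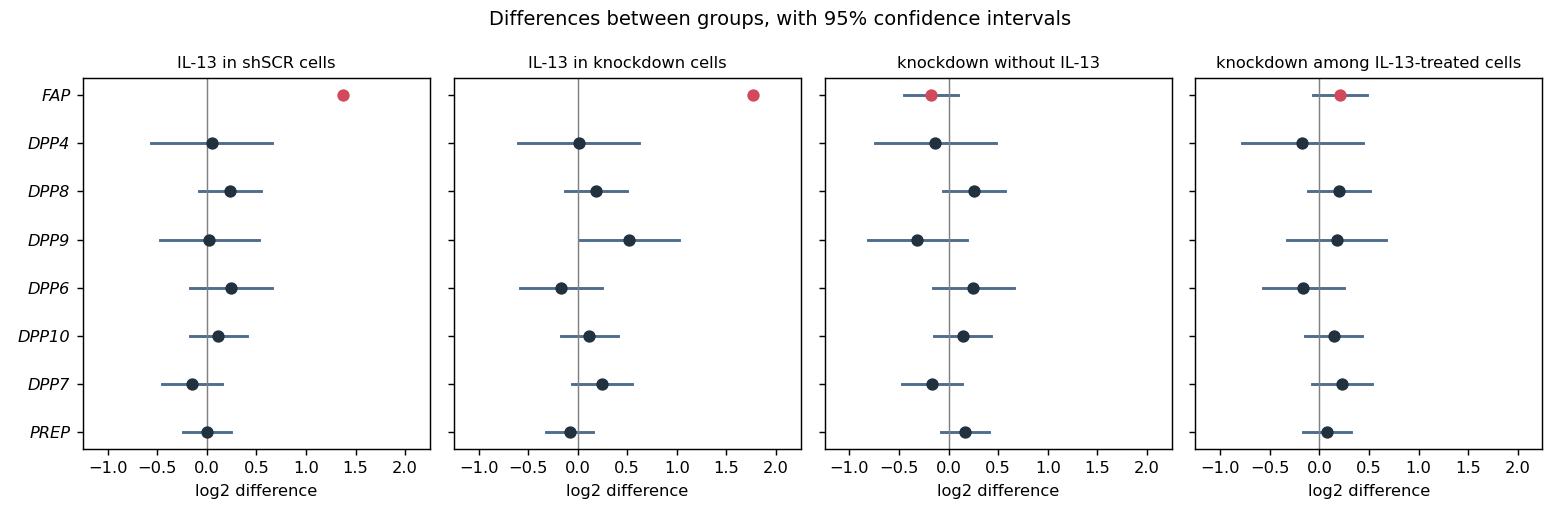
Difference in log2 expression between groups for FAP and its 7 relatives, in 4 panels: IL-13 in each line, and the knockdown without and with IL-13. Points are limma estimates and lines are 95% confidence intervals, which are not drawn for FAP with IL-13 because FAP was chosen on that difference; it lies at 1.38 and 1.77, and the relatives lie between -0.17 and 0.52 in the IL-13 panels.

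Other peptidases of the same neighbourhood of biochemistry (aminopeptidases, proline-specific enzymes and membrane peptidases, 16 genes, all of them on the array) held 1 gene that passed the adjusted test in any comparison. This was CTSC, cathepsin C, a lysosomal enzyme that also removes dipeptides from the start of proteins but belongs to the cysteine proteases. Its log2 expression was 10.02 and 10.13 in mock-treated scrambled cells, 10.64 and 10.78 in treated scrambled cells, 10.00 and 9.93 in mock-treated knockdown cells and 10.51 and 10.55 in treated knockdown cells, so all treated arrays lay above all mock-treated ones. Over both lines IL-13 raised CTSC by 0.60, or 1.52-fold (standard error 0.08, adjusted p = 0.0323 from limma), where 0.233% of all features passed this adjusted test. Leaving out any single array ended that call (adjusted p of 0.0944 to 0.175 from limma). The median of the 16 genes in that comparison was 0.050, against 0.0084 over all features.

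At an unadjusted p under 0.05 from limma, 2 of these 16 genes were passed over both lines, CTSC and ANPEP, where 8.73% of all features were. ANPEP, aminopeptidase N or CD13, is named here after its values were seen. It was 8.76 and 8.62, then 9.33 and 9.20 with IL-13, in the scrambled line, and 8.39 and 8.53, then 9.03 and 8.79 with IL-13, in the knockdown line. The treated arrays of ANPEP were above the mock-treated ones throughout, and its difference of 0.51 did not pass the adjusted test (adjusted p = 0.122 from limma). For the knockdown without IL-13, 1 of the 16 passed unadjusted, beside 9.51% of all features. This was the membrane peptidase MME, at 1.00 (adjusted p = 0.106 from limma), also named after its values were seen. The study lists MME as upregulated in that comparison.

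Of 27 genes for peptides and proteins that these enzymes are known to cut, among them chemokines, incretins, neuropeptides, antiplasmin and collagen chains, 0 passed the adjusted test of limma in any comparison. Averaged over the other factor, 1 of the 27 passed an unadjusted p under 0.05 with IL-13 (VIP), where 8.73% of all features did, and 3 passed it with the knockdown (CXCL10, CXCL2 and HMGB1), where 11.3% did. The smallest p belonged to the neutrophil chemokine CXCL2, with a knockdown difference over both treatments of 0.47 (adjusted p = 0.115 from limma), and to the eotaxin CCL11, at 0.50 for the knockdown without IL-13 (adjusted p = 0.380 from limma). VIP and CXCL10 were read at the background of the array, with 80.6% and 69.2% of the negative controls brighter than their means. The median of the 27 genes with IL-13 over both lines was 0.0042. Genes for binding and regulatory partners (integrin and urokinase receptor for FAP, adenosine deaminase and caveolin for DPP4, NLRP1 and CARD8 for DPP9, Kv4 channels for DPP6 and DPP10; 23 genes) likewise held 0 that passed the adjusted test of limma. In the same comparisons 1 of the 23 passed unadjusted with IL-13 (GPC3), beside 8.73% of all features, and 4 with the knockdown (FN1, ITGA3, PLAUR and KCNIP1), beside 11.3%. The integrin subunit ITGA3 came closest, at -0.48 for the knockdown over both treatments (adjusted p = 0.0532 from limma), followed by the urokinase receptor PLAUR at -0.55 (adjusted p = 0.153 from limma). GPC3 and KCNIP1 had means below the median of the negative controls, of which 59.1% and 55.2% were brighter. The median of the 23 partners with IL-13 over both lines was -0.039.

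FAP and DPP4 lie close together, and in the RefSeq annotation of GRCh38.p14 GCG, which encodes glucagon, is the 1 protein-coding gene between them. In order along the chromosome the genes examined were PSMD14, TBR1, SLC4A10, DPP4, GCG, FAP, IFIH1, GCA and KCNH7. The 7 other than FAP and DPP4 held 0 that passed the adjusted test of limma in any comparison, and with IL-13 over both lines 2 of the 7 passed an unadjusted p under 0.05, beside 8.73% of all features. These were IFIH1, the RNA sensor MDA5 next to FAP, at 0.24 (adjusted p = 0.376 from limma), and the channel gene KCNH7 at 0.24 (adjusted p = 0.399 from limma). The other differences with IL-13 over both lines were 0.031 for GCG, -0.22 for GCA, -0.035 for the proteasome subunit PSMD14, 0.060 for TBR1 and -0.0071 for SLC4A10. GCG, KCNH7 and SLC4A10, like DPP4, were dim, with 69.2%, 70.9% and 64.2% of the negative controls brighter than their means. A change in any of these genes was not detectable here, and the KCNH7 difference was read at the background of the array.

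**Figure D3:**
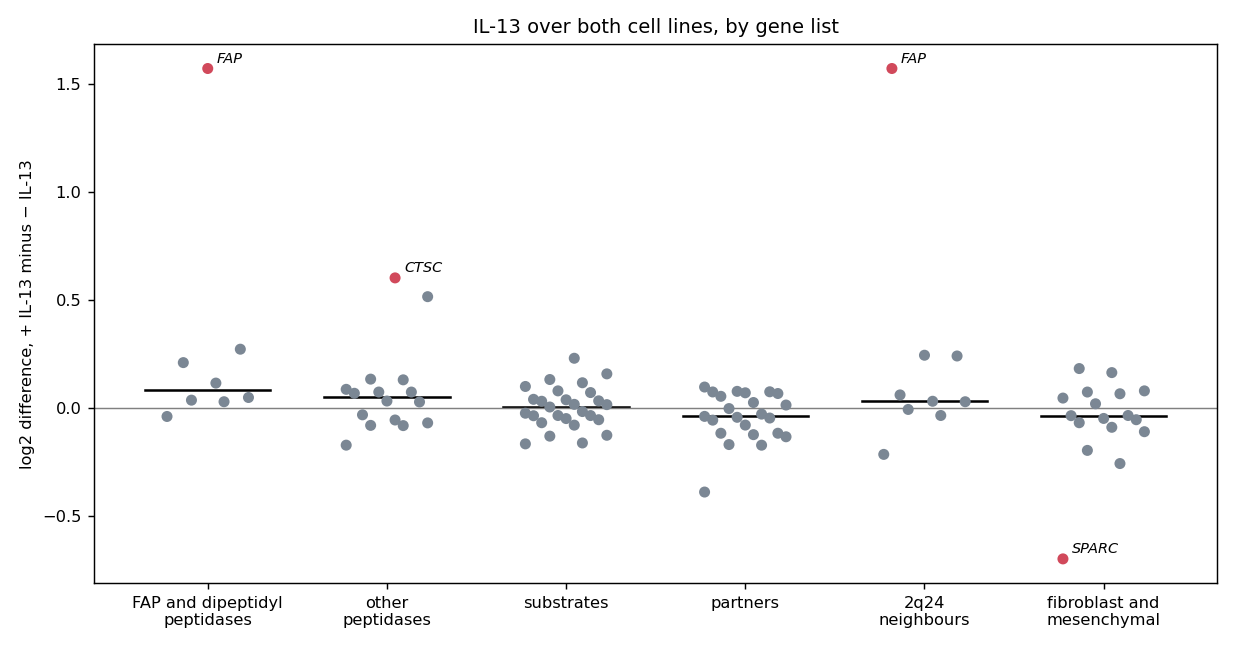
Difference in log2 expression with IL-13 averaged over both lines for each gene of 6 lists, with 1 point per gene and a bar at the list's median; red points are FAP and the genes that passed the adjusted test of limma. FAP (1.57) appears both among the 8 genes and among its chromosomal neighbours, CTSC (0.60) leads the other peptidases, SPARC (-0.70) is the lowest of the fibroblast and mesenchymal genes, and the list medians lie between -0.039 and 0.082.

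As FAP is best known from fibroblasts, markers of fibroblasts and mesenchymal cells were read beside it. Of 18 such genes 17 were on the array, and their mean log2 level was 4.95 to 4.99 in mock-treated scrambled cells, 4.92 to 4.95 in treated scrambled cells, 4.89 to 4.91 in mock-treated knockdown cells and 4.80 to 4.84 in treated knockdown cells. The lowest marker means were those of the treated knockdown cells. LUM (2.37), DCN (2.69), POSTN (2.62), PDGFRA (3.79) and TAGLN (3.45) had means below the median of the negative controls, and the other 12 were above it, among them the collagen chains COL1A1 (6.14), COL1A2 (5.13) and COL3A1 (4.72), PDGFRB (4.61) and THY1 (4.37). With IL-13 over both lines the median of the 17 genes was -0.036, and 1 gene passed the adjusted test, SPARC, a matrix glycoprotein. SPARC was 7.86 and 7.74, then 7.08 and 7.22 with IL-13, in the scrambled line, and 7.38 and 7.57, then 6.83 and 6.63 with IL-13, in the knockdown line. It fell by 0.70 with IL-13 over both lines (adjusted p = 0.0343 from limma) and was at -1.07 in treated knockdown against mock-treated scrambled cells (adjusted p = 0.0250 from limma). VIM, the intermediate filament vimentin, fell by 0.65 with the knockdown over both treatments (adjusted p = 0.0214 from limma) and was at -0.91 in treated knockdown against mock-treated scrambled cells (adjusted p = 0.0283 from limma). Where 0.233%, 0.285% and 0.446% of all features passed with IL-13, in treated knockdown against mock-treated scrambled cells and with the knockdown, these calls ended when any single array was left out (adjusted p from limma of 0.0967 to 0.175 and 0.0555 to 0.213 for SPARC, 0.0836 to 0.113 and 0.0555 to 0.202 for VIM).

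Epithelial markers were read in the same way. The mean log2 level of the 12 basal-like breast epithelial markers, keratins and adhesion genes among them, was between 7.85 and 8.06 on every array. Over the 8 arrays 0 of the 12 had a mean below the median of the negative controls. All 12 of these means were above 5, as were those of 7 of the 17 fibroblast and mesenchymal markers. With IL-13 over both lines the median difference of the 12 was -0.14, with 3 of them above 0. In treated knockdown against mock-treated scrambled cells it was -0.17, with 2 above 0. For the knockdown over both treatments it was -0.035, with 5 above 0. TP63 had the highest difference of the 12 in each of these comparisons, and by group it averaged 4.96 in mock-treated scrambled cells. The transcription factor TP63 was at 0.84 with IL-13 over both lines (adjusted p = 0.0463 from limma). With the knockdown over both treatments it was at 0.94 (adjusted p = 0.0225 from limma). These calls ended without any array other than array B of the treated knockdown cells. The differences with an array left out were 0.72 to 0.96 and 0.82 to 1.06. Some processing alternatives that kept all arrays also ended the call with IL-13, but not the call with the knockdown. In treated knockdown against mock-treated scrambled cells TP63 was at 1.78 (adjusted p = 0.00969 from limma, up to 0.0947 without an array), and that call ended without either mock-treated scrambled array or array A of the treated knockdown cells. The 7 luminal markers averaged 6.57 to 6.82 per array. The estrogen receptor ESR1 at 4.25 and the progesterone receptor PGR at 3.20 were near the negative controls. KRT18 fell by 0.60 with the knockdown over both treatments (adjusted p = 0.0454 from limma). That call ended when any single array was left out, with differences of -0.67 to -0.53. It rests on the brighter of the 2 features of KRT18, and the other was not used. The part of these markers in the values of FAP was not tested.

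Over the 8 arrays, the log2 values of FAP ran alongside those of a small set of other genes. Among 126 symbols whose group means spanned more than 1 log2 unit, Pearson's r with FAP was highest for CA2, a carbonic anhydrase (0.990), SLIT2, a secreted guidance protein (0.984), ABCC2, an export pump (0.980), LRAT, which esterifies retinol (0.978) and SERPINB3, a protease inhibitor (0.967). It was lowest for TMEM45A (-0.976), SCEL, encoding the cornified envelope protein sciellin (-0.968), STC1, the hormone stanniocalcin (-0.960), C12orf36 (-0.958) and CEACAM6, an adhesion molecule (-0.922). The 8 points are 4 groups of 2 arrays that share their treatments and their normalization, so these values rank genes by likeness of pattern and describe nothing else.

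The responses of these genes are given side by side with that of FAP, without a test of the differences. CA2 was 1.46 higher with IL-13 in both lines and SLIT2 was 1.15 higher in the scrambled and 1.17 higher in the knockdown line. ABCC2 was 1.39 and 1.48 higher, LRAT 1.34 and 1.28 and SERPINB3 3.88 and 3.28, in the same order of lines. FAP was 1.38 and 1.77 higher. Of the genes with the opposite pattern TMEM45A was at -1.20 and -1.18, and STC1 at -0.88 and -1.42. For the 7 relatives r with FAP ran from -0.30 for PREP through 0.0011 for DPP6, 0.096 for DPP4, 0.22 for DPP7, 0.50 for DPP9 and 0.53 for DPP10 to 0.57 for DPP8.

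**Figure D4:**
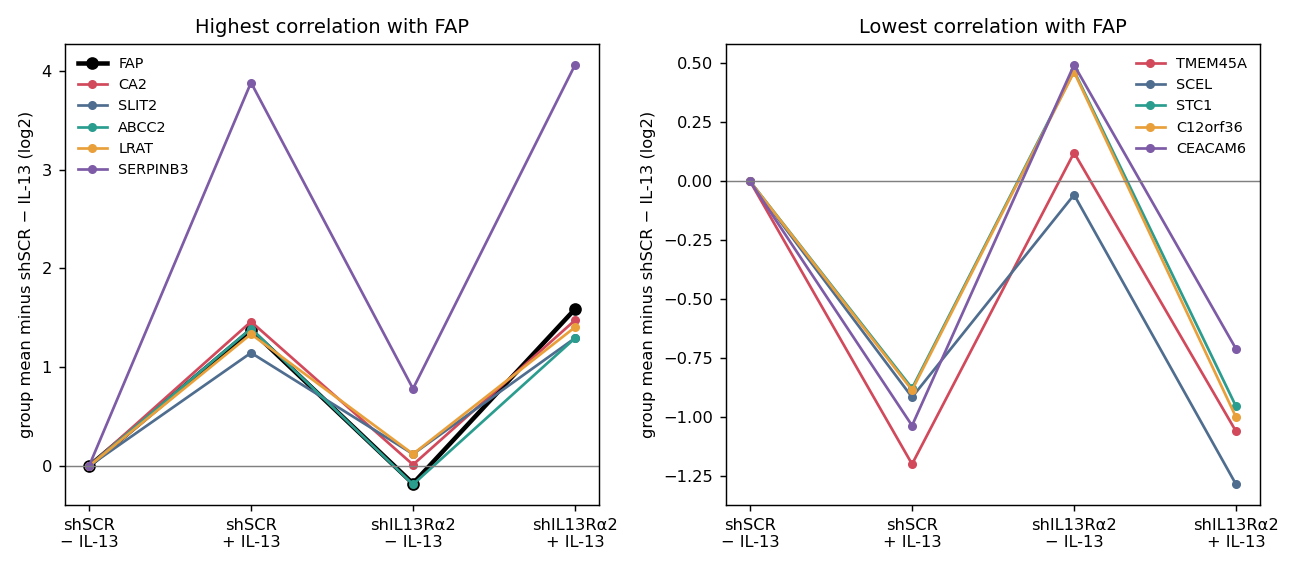
Group means of log2 expression relative to MIV-Luc-shSCR (− IL-13) cells for FAP with the 5 genes of highest correlation (left) and the 5 of lowest correlation (right), 2 arrays per mean. The genes on the left stand high in both IL-13-treated groups, with SERPINB3 3.88 above its starting level in treated scrambled cells and FAP 1.38, and those on the right stand low in both treated groups.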

How the data were processed

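Total RNA of 8 MIV-Luc cultures (4 groups of 2) was hybridized to Affymetrix GeneChip arrays. The values the authors deposited are log2 expression, 1 per gene-level feature and array, from RMA in Affymetrix Expression Console (version 1 in the submitters' processing notes), and replicates were not pooled. The genome build of the table is not given in the sources used here. The 4156 control and spike-in features of 33297 were left out and 29141 were tested without a further normalization or filter. Columns were placed in groups by construct and treatment in their headings, which carry running numbers and no replicate numbers.

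Group means were fitted with limma 3.58.1 in R 4.3.3, with 4 residual and 3.86 prior degrees of freedom, and checked on simulated data. P-values set a difference against the spread between cultures of the same group, which limma moderates with the spread of the other features. As the knockdown rests on 1 hairpin, variation between hairpins is not part of that spread. A call needed an adjusted p under 0.05 and a fold change above 2 (gene lists and the interaction: adjusted p alone). Named are the 8 genes, IL13RA2, list genes with an adjusted p under 0.05 in any comparison (1 of these is not reported here) or else the 2 with the smallest p, all chromosomal neighbours, and the 5 symbols of highest and of lowest Pearson r with FAP among those whose group means span more than 1 log2 unit. The members and lists were chosen with earlier results of these data known. A gene with several features was read on the brightest of them, by its mean over all arrays. Gene order came from RefSeq on GRCh38.p14.

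Alternatives were limma on the 4 arrays compared, the one-way analysis of variance of the methods (here the methods' test) on those arrays with and without adjustment, an intensity trend with a robust prior, other fold change thresholds, no adjustment, a filter on the dimmest 30% of features, a second quantile normalization, equal array medians, 1 feature per gene, and each array left out in turn.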

Additional observations from a re-analysis of the deposited data

How the results depend on the processing

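The IL-13 differences of FAP, which led to its choice, are given for their size alone. The log2 difference was 1.27 to 1.48 in the scrambled line, 1.70 to 1.83 in the knockdown line, 1.52 to 1.62 over both lines and 1.48 to 1.70 in treated knockdown against mock-treated scrambled cells. Of 752 differences of the 8 genes under an alternative, 46 had the other sign than the reported value, 0 of them for FAP with IL-13. For IL-13 in the scrambled line, IL-13 in the knockdown line and treated knockdown against mock-treated scrambled cells, the count of called members went from 1 to 0 with limma on the 4 arrays compared and to 0 with the methods' test after adjustment, and was 0 to 1 in each when an array was left out. Those alternatives have fewer arrays to estimate the spread from. For the interaction it went from 0 to 1 with limma without adjustment. The 1 gene in these counts is FAP, so nothing is read from them. The count of other list genes passing the adjusted test moved most when the variance prior was robust and followed intensity: from 0 to 4 for IL-13 in the scrambled line, 0 to 5 for the knockdown without IL-13, 4 to 7 for treated knockdown against mock-treated scrambled cells, 0 to 3 for IL-13 in the knockdown line, 0 to 3 for the knockdown among treated cells and 3 to 10 for the knockdown over both treatments, where leaving out the dimmest 30% of features gave 5. The cause was not tested. With an array left out it was 0 to 1 in treated knockdown against mock-treated scrambled cells, for IL-13 over both lines and for the knockdown over both treatments. Leaving out the dimmest 30% of features kept 6 of the 8 genes and dropped DPP4 and DPP10, whose signal over background limits what can be read from them. No paired analysis was possible because the column headings number the arrays in one series and hold no replicate numbers, so arrays of different groups could not be matched.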
